A study of Mus musculus with 3 samples.

Results

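Sgk1, Sgk3, Tsc22d3, Fkbp5, Nr3c1 and Zbtb16 are a kinase pair, the glucocorticoid receptor and classical genes of the glucocorticoid response, and were taken by gene symbol. All 6 were found among 23298 symbols in each library, and 4 of the 6 (Sgk1, Tsc22d3, Fkbp5 and Nr3c1) were among the 10464 genes that averaged 1 FPKM or more. FPKM are fragments scaled by transcript length and library size. The cells were C2C12, a mouse myoblast line, carrying a construct named hN1∆ECD in the study's title, read here as human NOTCH1 without its extracellular domain. The labels do not say whether the line is 1 clone. All cultures were in DMEM with 20% FBS. The submitters describe culture in 10 uM DAPT, an inhibitor of the gamma-secretase that releases active Notch from the membrane. DAPT was washed out 1 h before collection in the first library of interest and 6 h before collection in the second, while the control library is labelled as having no treatment. Each group was 1 library, so conditions could not be tested and every difference stands without replicates. The labels name no glucocorticoid. They do not say whether the control stayed in DAPT or had its medium exchanged, so DAPT removal and a medium exchange cannot be told apart.

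Glucocorticoids diffuse into cells and bind the receptor encoded by Nr3c1, which waits in the cytosol in a complex with HSP90 and immunophilins such as FKBP5. The bound receptor enters the nucleus, attaches to palindromic response elements and switches on genes such as Tsc22d3, Fkbp5, Zbtb16 and Sgk1. Sgk1 is also transcribed quickly after serum and osmotic stress, and in skeletal muscle prolonged glucocorticoid exposure is known for atrophy.

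Of the marker genes of the labelled cell type, Des, Cdh15 and Myf5 were present, whereas Myod1, Pax7 and Myog were below 1 FPKM in all 3 libraries. Across the control, 1 h and 6 h, the myoblast markers summed to 101, 142 and 162 FPKM, but single markers took different courses. Cdh15 had 27.4, 41.2 and 87.0 FPKM, highest at 6 h. Myf5 had 11.4, 26.4 and 8.51 FPKM, highest at 1 h and lowest at 6 h, the order also seen for Tsc22d3. Des had 62.2, 73.3 and 66.3 FPKM, and Myod1 had 0.189 and 0.295 FPKM and was listed at 0 at 6 h. The 4 endothelial markers summed to at most 0.0283 FPKM and the 5 macrophage markers to at most 1.87 FPKM, with Ptprc and Emr1 listed at 0 throughout. Adipocyte markers summed to 31.5, 29.1 and 21.3 FPKM, with Plin1 and Cfd at 0 in every library. Nearly all of that sum was Lpl, with 24.6, 19.5 and 14.8 FPKM, and Fabp4, with 6.91, 9.56 and 6.56 FPKM. Osteoblast markers summed to 12.9 FPKM in the control and to at least 15.9 FPKM after washout, with Ibsp at 0 in every library. Nearly all of this was Runx2, with 12.7, 15.5 and 15.6 FPKM, and Bglap, Alpl and Sp7 stayed at or below 0.327 FPKM. The part of these marker genes in the results below was not tested. The spacing of low values gave estimated depths of about 24300000 fragments for the control and 21100000 for each washout library. For a transcript of 1 kb, 3 fragments then equal 0.123 and 0.142 FPKM. These figures are rough, because 54.5% to 62.0% of the low values lay within 0.15 of a whole fragment at the fitted depth.

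The promoter windows of Sgk1 and Tsc22d3 are shown because these were the members that differed most between libraries. Windows of 300 bases around RefSeq (GRCm38.p6) start sites were searched for 3 of the 6 members. There were 6 for Sgk1, 3 for Tsc22d3 and 1 for Fkbp5. Sgk3 and Zbtb16 had no window, and Nr3c1 was left out of the search by choice. The sequences run 5′ to 3′ on the gene's strand, and capitals mark the full palindrome of the glucocorticoid receptor element (the arm AGAACA, 3 bases, then its reverse complement TGTTCT) in the first and the TATAAA motif in the second, while the third holds none of the letters searched. The first lies at chr10:21993640-21993939 on the plus strand, the second at chr10:21994416-21994715 on the plus strand, and the third at chrX:140542619-140542918 on the minus strand.
Sgk1 window 5: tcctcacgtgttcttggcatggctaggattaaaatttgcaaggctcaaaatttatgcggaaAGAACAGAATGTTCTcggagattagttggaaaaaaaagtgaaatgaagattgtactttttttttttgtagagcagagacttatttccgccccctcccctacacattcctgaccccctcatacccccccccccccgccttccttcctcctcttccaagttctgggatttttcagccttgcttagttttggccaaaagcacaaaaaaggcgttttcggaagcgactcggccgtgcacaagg
Sgk1 window 6: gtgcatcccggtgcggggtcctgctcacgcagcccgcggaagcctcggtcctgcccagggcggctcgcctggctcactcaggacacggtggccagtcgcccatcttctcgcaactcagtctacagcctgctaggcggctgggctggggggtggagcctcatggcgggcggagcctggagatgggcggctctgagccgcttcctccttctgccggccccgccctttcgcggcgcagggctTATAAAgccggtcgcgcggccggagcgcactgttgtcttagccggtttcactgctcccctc
Tsc22d3 window 3: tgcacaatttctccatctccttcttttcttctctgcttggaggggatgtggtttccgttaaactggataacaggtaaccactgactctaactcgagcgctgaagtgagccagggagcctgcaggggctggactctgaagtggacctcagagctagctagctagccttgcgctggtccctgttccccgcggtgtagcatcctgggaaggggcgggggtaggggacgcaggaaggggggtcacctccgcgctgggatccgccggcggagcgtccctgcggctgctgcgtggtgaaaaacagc

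The full palindrome stood at bases -189 to -175 of Sgk1 window 5, counted from that window's start site as 0, and at -965 to -951 from the start site of window 6. It was found in 3 of all 32851 RefSeq windows of this length, or 0.00913%. Its shorter core ACANNNTGT, which the full palindrome contains, was also in Sgk1 window 2, and was in 6.85% of all windows. The single arm AGAACA was in 4 of the 10 windows of these genes and in 19% of all windows, searched on both strands like every motif here. Neither Tsc22d3 nor Fkbp5 had the core in these windows. GTGGGAA, the binding motif of the Notch partner RBPJ, and the CArG box of serum response factor were in 0 of the 10 windows, and in 6.38% and 1.63% of all windows. TGACG, found in cyclic AMP response elements, was in Sgk1 window 2 and Tsc22d3 window 2 (20.8% of all windows). TATAAA was in Sgk1 windows 4 and 6 (13.6%). The files give 1 FPKM per gene over 6 start sites for Sgk1, so the windows' own transcripts were not separated.

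Sgk1 encodes a serine/threonine kinase of the AGC family whose mRNA and protein are short-lived. Its level was 51.1 FPKM in the control, 290 FPKM 1 h after washout and 48.1 FPKM 6 h after washout. The 1 h library stood apart, and the deposited 95% bounds of the control (49.1 to 53.7 FPKM) and the 6 h library (45.7 to 50.7 FPKM) overlapped. The gene lies on chromosome 10 from 21601990 to 21719708 (mm9, the build of the files). The 1 h level of Sgk1 exceeded the control 5.68-fold, with an interval up to 5.98 and down to 5.40 that combines the widths of both libraries' bounds and covers error within a library only. On the log2(FPKM + 1) scale the difference was 2.48, the 44th largest increase among 10464 genes. The 6 h minus 1 h difference was -2.57 on the same scale, a 6.03-fold lower level (5.70 to 6.38). At 6 h the ratio to the control was 0.942 (0.879 to 1.01). In rank order of FPKM Sgk1 was the 296th most abundant symbol at 1 h, against 1763 in the control and 1847 at 6 h.

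Sgk3, the relative that carries a phosphoinositide-binding PX domain and sits on endosomes, was far lower. It had 0.816 FPKM in the control, 1.08 FPKM at 1 h and 1.04 FPKM at 6 h. Its bounds overlapped between every pair of libraries. The ratio to the control was 1.32 (1.01 to 1.73) at 1 h and 1.28 (0.976 to 1.67) at 6 h. With a mean of 0.979 FPKM it fell just below the filter of 1 FPKM. Sgk1 stood 62.6 times above Sgk3 in the control, 269 times at 1 h and 46.1 times at 6 h, in FPKM. The third family gene, Sgk2, was listed at 0 in every library.

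Tsc22d3 encodes GILZ, a leucine zipper protein that restrains NF-kB and AP-1. It had 5.75 FPKM in the control, 13.5 FPKM at 1 h and 4.75 FPKM at 6 h. As for Sgk1, the 1 h library was the high one and the bounds of the control and 6 h libraries overlapped, at 4.99 to 6.50 and 4.05 to 5.47 FPKM. Tsc22d3 lies on chromosome X from 137074068 to 137135061 (mm9). The 1 h level exceeded the control 2.35-fold (2.00 to 2.75) and the 6 h level 2.84-fold (2.38 to 3.38). These were differences of 1.10 and -1.33 in log2(FPKM + 1). Under a pseudocount of 5 both came below the 2-fold limit, at 0.78 and -0.92. At 6 h the ratio to the control was 0.826 (0.678 to 1.01).

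**Figure D1:**
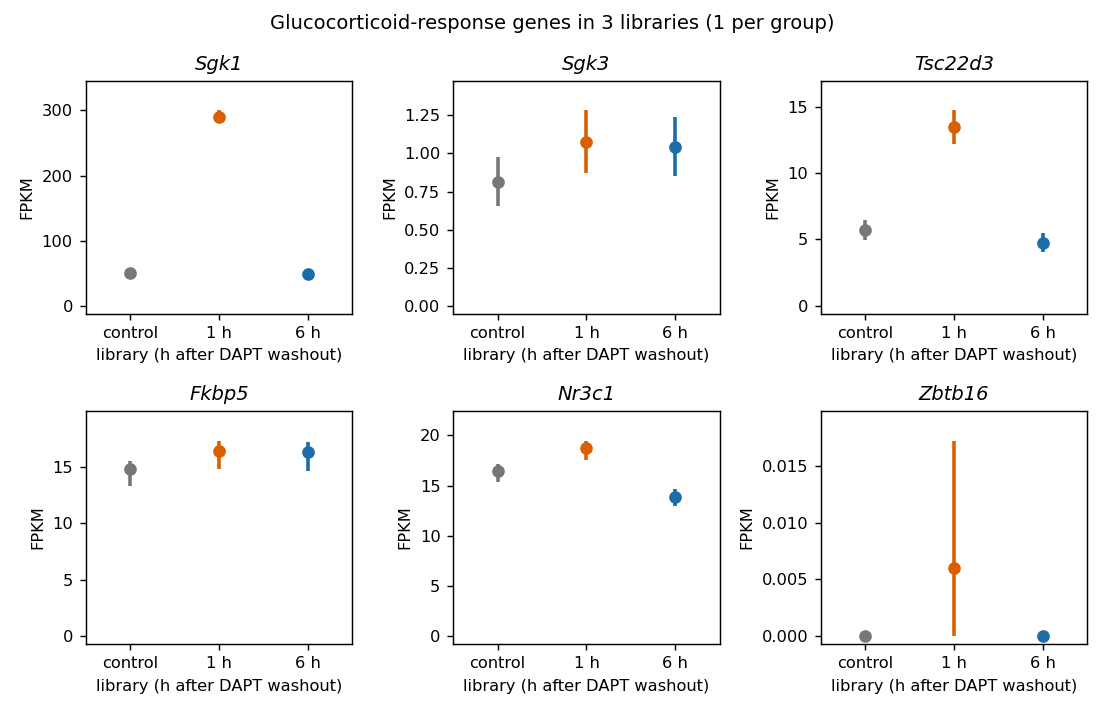
FPKM of the 6 members (y axis, linear, each panel with its own scale) across the control, 1 h and 6 h (x axis); points are deposited values of 1 library each and bars their deposited 95% bounds. Sgk1 (290 FPKM) and Tsc22d3 (13.5 FPKM) are highest at 1 h, Fkbp5 bars overlap throughout, and Zbtb16 is at or near 0.

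Fkbp5 encodes an HSP90 co-chaperone that lowers the receptor's affinity for hormone and is itself a standard marker of receptor activity. It had 14.8 FPKM in the control, 16.4 FPKM at 1 h and 16.3 FPKM at 6 h. The bounds of all 3 libraries overlapped (13.3 to 15.5, 14.8 to 17.3 and 14.7 to 17.2 FPKM). Its ratio to the control was 1.11 (0.996 to 1.23) at 1 h and 1.10 (0.989 to 1.22) at 6 h. The gene lies on chromosome 17 from 28536040 to 28623057 (mm9).

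Nr3c1, the receptor gene, had 16.4 FPKM in the control, 18.7 FPKM at 1 h and 13.9 FPKM at 6 h. The bounds were apart in all 3 comparisons: 15.4 to 17.1 FPKM in the control, 17.5 to 19.5 FPKM at 1 h and 12.9 to 14.6 FPKM at 6 h. The ratio of receptor mRNA at 1 h to the control was 1.14 (1.06 to 1.23), and the ratio to the control at 6 h was 0.845 (0.780 to 0.915). The 6 h minus 1 h difference was -0.41 in log2(FPKM + 1). Such a pattern, bounds apart above the control at 1 h and below it at 6 h, was met by 320 genes, or 3.06% of those that passed the filter. Zbtb16, which encodes the zinc finger repressor PLZF and is strongly hormone-induced in many cells, was listed at 0 at 6 h and in the control. Its 1 h value was 0.00601 FPKM, with bounds from 0 to 0.0173 FPKM, so Zbtb16 mRNA was not detectable above this level.

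Counted together, 2 of the 4 members that passed the filter exceeded the control by 2-fold or more at 1 h, and 0 lay below it by as much. Among all 10464 genes 1.31% did the former and 0.831% the latter. Under a pseudocount of 5 only Sgk1 was counted. The members were chosen with earlier results of these data known, so their counts do not test the set. Bounds were apart on the higher side for 3 of the 4 at 1 h and on the lower side for 0, beside 14.9% and 20.1% of all genes. At 6 h 0 of the 4 were 2-fold from the control, where 1.08% of all genes were higher and 0.631% lower by that measure. Nr3c1 was the 1 member with bounds apart at 6 h, on the lower side, as were 19.2% of all genes. From 1 h to 6 h 2 of the 4 went down by 2-fold or more (1.7% of all genes), and 3 of the 4 had bounds apart on the lower side (23% of all genes). Sgk1 and Tsc22d3 were among 84 genes, 0.803% of all, that were past 2-fold above the control at 1 h, inside 2-fold of it at 6 h, and past 2-fold down between the washout times. The median log2 difference over the 4 members was 0.64 at 1 h and -0.16 at 6 h, and over all genes -0.02 and -0.06. The comparisons with the control share that library.

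**Figure D2:**
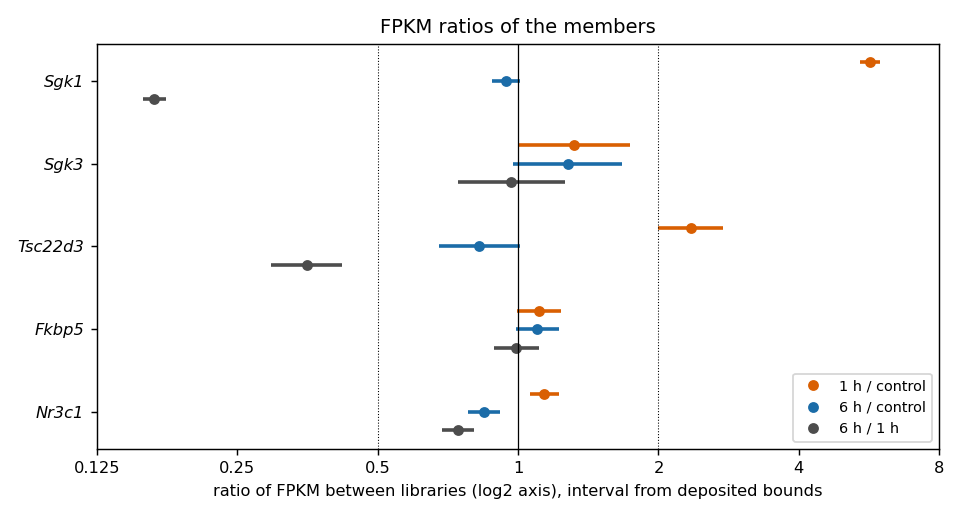
Ratio of FPKM between libraries (x axis, log2 scale) for 5 members (rows), with intervals from the deposited bounds; colours mark 1 h over control, 6 h over control and 6 h over 1 h, and dotted lines mark 2-fold. Sgk1 at 5.68 and Tsc22d3 at 2.35 lie beyond 2-fold at 1 h, and the 6 h over control ratios of all 5 lie between 0.826 and 1.28.

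The order of the members' levels differed between libraries. In the control it was Sgk1, Nr3c1, Fkbp5, Tsc22d3, Sgk3 and Zbtb16, and the neighbours Nr3c1 and Fkbp5 had overlapping bounds. At 1 h the order was the same, with Nr3c1 and Fkbp5 apart, and Fkbp5 stood 1.22 times above Tsc22d3. At 6 h Fkbp5 stood above Nr3c1 with their bounds apart, and exceeded Tsc22d3 3.44 times. At 1 h Sgk1 was above 97.2% of the genes that passed the filter, beside 83.2% in the control and 82.3% at 6 h. For Tsc22d3 these shares were 49.3% at 1 h, 25.9% in the control and 22.8% at 6 h.

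The genes with the pattern closest to Sgk1, by distance between the pairs of log2(FPKM + 1) differences from the control at 1 h and 6 h, were Klf2, Zfp36, Cyr61, Errfi1 and Csrnp1. The distance was taken over 3 libraries and 10362 genes above 0 in all of them, and ran from 0.14 for Klf2 to 0.34 for Csrnp1. Klf2, a Krüppel-like transcription factor gene, had 4.12, 25.6 and 3.52 FPKM across the control, 1 h and 6 h. Cyr61, which encodes a matricellular protein, had 252, 1139 and 248 FPKM. Errfi1, whose product inhibits the EGF receptor, had 26.5, 162.5 and 31.4 FPKM. Closest to Tsc22d3 were Cxcl1, Trib3, 1700024P16Rik, Klf11 and Nr1d1, at distances from 0.03 to 0.12. The chemokine gene Cxcl1 had 24.8, 53.8 and 21.3 FPKM, and the clock repressor gene Nr1d1 12.1, 27.5 and 11.1 FPKM. The others were low, with 0.994, 3.21 and 0.737 FPKM for Trib3 and 1.01, 3.49 and 0.604 FPKM for Klf11. For 1700024P16Rik the values were 1.65, 4.51 and 1.41 FPKM. The pseudocount of 1 shrinks differences at such levels, so closeness on this scale is not closeness in FPKM ratio. In all 10 the 1 h library was the highest, which follows from choosing them by these differences.

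**Figure D3:**
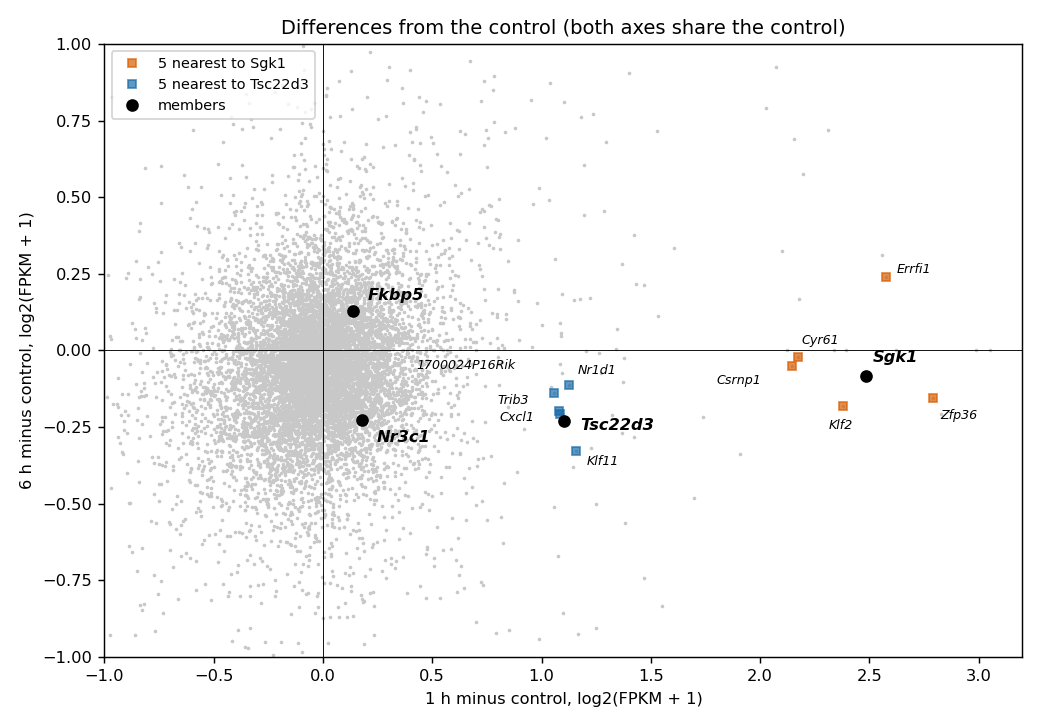
Difference from the control in log2(FPKM + 1) at 1 h (x axis) and 6 h (y axis); grey points are genes that passed the filter of 1 FPKM (10203 drawn, 261 beyond the axes), black points 4 members, and squares the 5 genes nearest to Sgk1 and to Tsc22d3. Sgk1 lies at 2.48 and -0.08 and Tsc22d3 at 1.10 and -0.23, to the right of most genes and near 0 on the y axis.

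Beyond the members, 90 genes in 6 lists covered the receptor's partners, its targets, the kinase pathway and the related families, and 66 of them passed the filter. The lists held different genes and, like the members, were chosen with earlier results of these data known. Beside the counts below, 1.31% of all genes were 2-fold higher and 0.831% lower than the control at 1 h. At 6 h these shares were 1.08% and 0.631%. Of 15 receptor and chaperone genes above the filter, 0 were at least 2-fold from the control at 1 h or 6 h, and their differences at 1 h ran from -0.17 to 0.38. Hsp90ab1 and Hsp90aa1, which encode the chaperone that holds the receptor ready, had 1511 and 325 FPKM in the control, 1342 and 336 FPKM at 1 h and 1488 and 350 FPKM at 6 h. Hspa8, which starts the folding of the receptor, had 1583, 1577 and 1488 FPKM. Ptges3, the p23 co-chaperone gene, had 234, 214 and 248 FPKM. Reads of these chaperone genes can also fall on near-identical pseudogene copies. The mineralocorticoid receptor gene Nr3c2, and Hsd11b1 and Hsd11b2, whose enzymes switch glucocorticoids between active and inactive forms, stayed at or below 0.113 FPKM.

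Of 24 listed glucocorticoid-induced genes 14 passed the filter. At 1 h 1 of them was at least 2-fold higher and 0 were lower, beside 1.31% and 0.831% of all genes. That gene was Ddit4, an inhibitor of mTORC1, with 46.1, 94.4 and 75.1 FPKM across the control, 1 h and 6 h, 2.05-fold higher at 1 h (1.91 to 2.20). Under a pseudocount of 5 it too was inside 2-fold. At 6 h Pdk4, a kinase that restrains pyruvate oxidation, was the 1 listed gene at least 2-fold lower, as were 0.631% of all genes. It had 10.7 FPKM against 27.9 FPKM in the control, a ratio of 0.383 (0.344 to 0.427). Klf9, a transcription factor gene of the direct response, had 4.07, 7.09 and 8.75 FPKM, a log2(FPKM + 1) difference of 0.94 at 6 h. Without the pseudocount its 6 h ratio to the control was 2.15 (1.83 to 2.52). Mertk, also inside 2-fold on the log2(FPKM + 1) scale, had a 6 h ratio of 0.416 (0.285 to 0.608). Anxa1, the annexin that mediates anti-inflammatory effects of glucocorticoids, had 544, 658 and 545 FPKM. The metallothionein genes Mt1 and Mt2 had 217 and 90.2 FPKM in the control, 197 and 103 FPKM at 1 h and 210.3 and 140.3 FPKM at 6 h. The muscle atrophy ligase gene Fbxo32 had 1.14, 1.38 and 2.24 FPKM, and Trim63 had at most 0.0526 FPKM. The list median was 0.09 at 1 h and 0.03 at 6 h.

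A separate list held glucocorticoid-induced genes that are also immediate early genes, chosen with their earlier results known. Of 6 above the filter, 4 were at least 2-fold higher at 1 h, beside 1.31% of all genes, and the list median was 1.96. Dusp1, a MAP kinase phosphatase gene, had 22.8, 254 and 42.2 FPKM across the control, 1 h and 6 h. Zfp36, whose product promotes decay of AU-rich mRNAs, had 14.0, 102.7 and 12.5 FPKM. Errfi1 is described above, and the period gene Per1 had 5.42, 15.3 and 5.43 FPKM. Cebpb was lower at 1 h with its bounds apart, at 65.5 FPKM against 85.2 FPKM in the control, and was at 85.2 FPKM at 6 h. At 6 h 0 of the 6 were 2-fold from the control, and the median was 0.002.

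Among inflammatory genes that glucocorticoids repress, 5 of 12 passed the filter. Of these, 3 were at least 2-fold higher at 1 h and 0 lower, beside 1.31% and 0.831% of all genes. Ptgs2, which encodes cyclooxygenase-2, had 95.3, 226 and 163 FPKM across the control, 1 h and 6 h. The cytokine gene Il6 had 0.487, 2.86 and 10.01 FPKM. Of the 5 it alone passed 2-fold at 6 h, on the higher side, as did 1.08% of all genes. With its control value below 1 FPKM, it passed the filter through the washout libraries and could not have been called 2-fold lower. The third gene higher at 1 h was Cxcl1. Under a pseudocount of 5 only Ptgs2 was still past 2-fold at 1 h. Vcam1, an adhesion receptor gene, had 14.9, 17.3 and 11.7 FPKM, and the chemokine gene Ccl2 had 297, 283 and 184 FPKM.

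In the kinase pathway 0 of 13 genes above the filter were 2-fold from the control at either time. The 1 h differences had a median of 0.15, with 8 above 0 and 5 below, and the 6 h differences a median of -0.11, with 3 above and 10 below. Pdpk1, whose kinase activates SGK proteins, had 11.8, 13.7 and 11.6 FPKM across the control, 1 h and 6 h. Mapkap1 and Rictor, subunits of the mTORC2 complex that phosphorylates SGK1, stood at 15.4 and 3.37 FPKM in the control and reached 20.1 and 4.20 FPKM at 1 h. Akt1, a related AGC kinase gene, had 163, 136 and 140.0 FPKM, and Akt2 39.2, 34.6 and 37.0 FPKM. Of the SGK1 substrates, Ndrg1 had 9.97, 18.5 and 10.02 FPKM, 1.86-fold higher at 1 h (1.64 to 2.10). Its relative Ndrg2 went the other way, with 1.38, 0.665 and 0.552 FPKM, a mean below the filter. Its ratio to the control was 0.481 (0.305 to 0.758) at 1 h and 0.399 (0.245 to 0.648) at 6 h, with bounds apart at both times. Foxo3, a forkhead transcription factor gene, had 4.58, 5.34 and 4.09 FPKM, and its bounds overlapped those of the control at both times. The ubiquitin ligase gene Nedd4l had 6.90, 7.78 and 6.21 FPKM, and its relative Nedd4 176, 185 and 150.02 FPKM.

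Tsc22d3 was the lowest of 4 TSC22 domain genes in each library, with 1.99%, 3.38% and 2.06% of their summed FPKM across the control, 1 h and 6 h. Tsc22d1 had 236, 341 and 188 FPKM and Tsc22d2 9.89, 16.3 and 7.35 FPKM, both highest at 1 h and lowest at 6 h, with bounds apart from the control at both times. Their ratios of 1 h to control were 1.44 and 1.65, beside 2.35 for Tsc22d3. Tsc22d4 was highest in the control, at 37.2 FPKM against 28.6 and 30.6 FPKM. Fkbp5 was 10th of 13 FKBP genes in every library and its relative Fkbp4, another HSP90 partner, stood 9.72, 7.98 and 7.98 times above it. Fkbp1a, Fkbp10 and Fkbp9, the most abundant FKBP genes of that list, had 311, 163 and 140.3 FPKM in the control, 299, 139 and 130 FPKM at 1 h and 301, 156 and 136 FPKM at 6 h. At 1 h and 6 h 0 of 13 listed TSC22 and FKBP genes above the filter were 2-fold from the control. From 1 h to 6 h 1 of the 13 went down by 2-fold or more, beside 1.7% of all genes.

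**Figure D4:**
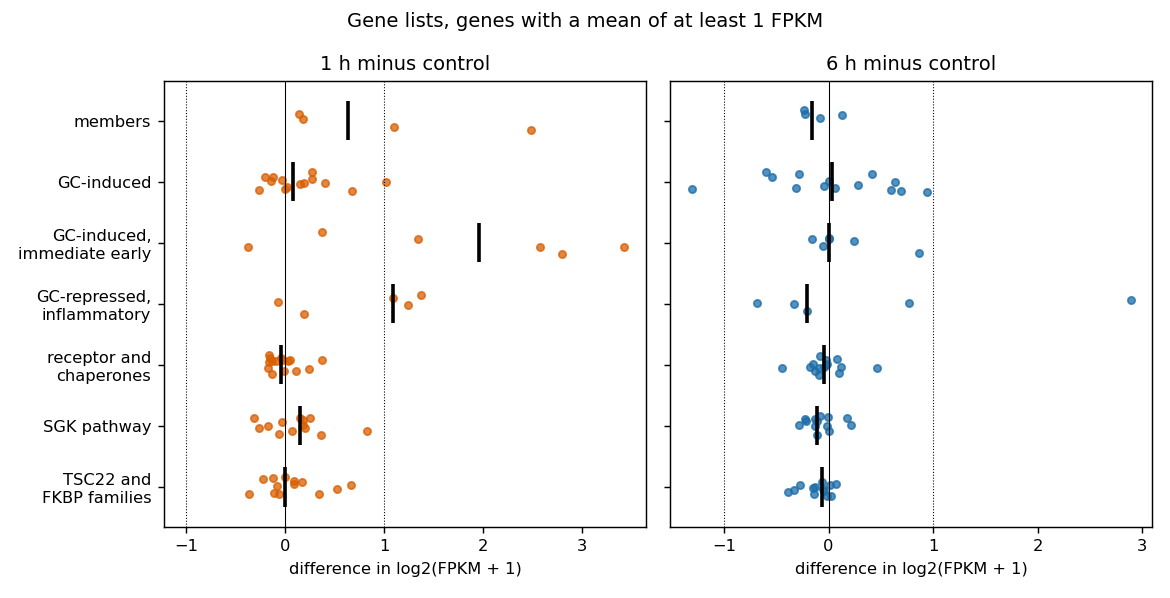
Difference from the control in log2(FPKM + 1) (x axis) at 1 h (left) and 6 h (right) for the members and 6 gene lists (rows; GC, glucocorticoid); points are genes averaging 1 FPKM or more, black bars list medians and dotted lines 2-fold. At 1 h the immediate early list has a median of 1.96 and the other glucocorticoid-induced list 0.09. The immediate early list was chosen with earlier results of these data known, so this contrast is partly built in.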

How the data were processed

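Polyadenylated RNA of 3 libraries was sequenced. The authors deposited FPKM per gene with 95% bounds, made with TopHat and Cufflinks on mm9 per the submitters' processing notes, whose versions and settings are not stated there. A deposited series table repeats these FPKM in all 23807 rows; its washout columns, headed cont with the time, were matched by the time in the titles. Rows of a symbol were summed. Differences were taken as log2(FPKM + 1), which understates those of low genes, for genes averaging 1 FPKM or more, and 2-fold on that scale was counted. Fold ratios are of FPKM without a pseudocount, with intervals from the relative widths of both libraries' bounds. FPKM lay outside its own bounds in 19.9% to 21.5% of rows above 1 FPKM, but in 0 of the 18 values of the members. Depth was estimated from low values of genes with 1 transcript (GENCODE vM21) over 1500 nt: 54.5% to 62.0% lay within 0.15 of a whole fragment, at a step fitted to the same values. Whole counts could not be recovered, so count tests were not used. Members and lists were chosen with earlier results of these data known. Named were all members, list genes at least 2-fold from the control, the 4 most abundant genes per list and the 5 nearest in pattern to Sgk1 and to Tsc22d3; other list genes were named after their values were seen, and 1 gene of the SGK pathway list is not reported here. Python 3.11.15, pandas 2.3.3 and numpy 2.4.6 were used, and the calls were tested on simulated data. Alternatives were pseudocounts of 0.1 and 5, a minimum mean of 5 FPKM or none, 2 rescalings, the top row of each symbol, rows of status OK alone, the series table and a 1.5-fold limit.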

Additional observations from a re-analysis of the deposited data

Results flagged for a closer look

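Of 67 genes checked, 27 stood on opposite sides of the control at 1 h and at 6 h by the sign of the log2(FPKM + 1) difference alone, 24 of them higher at 1 h. On opposite sides, in either direction, were 4606 of all 10464 genes above the filter, 44.0%. The checked genes include Myod1, Myog, Pax7 and Hsd11b1, which lay below that filter, Pax7 with at most 0.0109 FPKM. The share of all genes higher at 1 h and lower at 6 h was not counted. Genes picked for a pattern near that of Sgk1 or Tsc22d3 were among the 24, so their direction is partly built in. With 1 library per group this was not tested, and many of the differences were near 0. Values below are differences of 6 h minus 1 h on that scale. Among the members they were -2.57 for Sgk1, -1.33 for Tsc22d3 and -0.41 for Nr3c1, all higher at 1 h. For Sgk1 and Tsc22d3 the bounds of the 6 h and control libraries overlapped, and for Nr3c1 they were apart. The other genes higher at 1 h included Zfp36 with -2.95, Cxcl1 with -1.29, Vcam1 with -0.52 and Nedd4 with -0.30. In the TSC22 family the value was -0.85 for Tsc22d1 and -1.05 for Tsc22d2. It was -2.56 for Klf2, -2.19 for Cyr61, -2.20 for Csrnp1, -1.28 for Trib3, -1.20 for 1700024P16Rik, -1.48 for Klf11 and -1.24 for Nr1d1, which were named for a pattern near that of Sgk1 or Tsc22d3. In the kinase pathway it was -0.32 for Foxo3, -0.28 for Nedd4l, -0.22 for Pdpk1 and -0.36 for Mapkap1. Of the myoblast markers, Myf5 had -1.53, Myod1 -0.37, Myog -0.31 and Pax7 -0.016. Cebpb, Ptges3 and Hsd11b1 were lower at 1 h, with 0.37, 0.21 and 0.099 between the times. At 6 h Cebpb was level with the control, 85.2 FPKM in both.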

How the results depend on the processing

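No paired analysis was possible because each group had 1 library. Of 402 recomputed values 363 stayed within the bounds' spread or, for counts, within 1.5 times. These include member values that the filters, the top row, status OK and the series table leave unchanged. Sgk1, Tsc22d3, Nr3c1 and Sgk3 kept the sign of each difference in all 27 recomputed values per gene, and Fkbp5 in 25 of 27. Only the 2 rescalings could change a sign, because the other settings keep the order of a member's libraries. With a pseudocount of 5 the Sgk1 difference was 2.40 at 1 h and -2.47 between 1 h and 6 h, and that of Tsc22d3 0.78 and -0.92. Members past 2-fold were then 1 in each of these comparisons, against 2 with the pseudocount of 1. All genes past it numbered 147 at 1 h, 109 at 6 h and 172 between the times, against 224, 179 and 332 with the pseudocount of 1 and 299, 245 and 498 with 0.1. With the pseudocount of 5 glucocorticoid-induced genes at 1 h numbered 0, repressed inflammatory genes 1 at 1 h and 1 between the times, and TSC22 and FKBP genes 0 between the times. With the pseudocount of 1 these counts were 1, 3, 2 and 1, in the same order. With a pseudocount of 0.1 glucocorticoid-induced genes numbered 3 at 6 h and 2 between the times, against 1 each in the main setting. With libraries scaled to equal median ratios they numbered 2 at 6 h. With a minimum mean of 5 FPKM, repressed genes numbered 0 at 6 h and 1 between the times, because Il6 was left out. At 1.5-fold all genes numbered 684 at 1 h, 535 at 6 h and 1074 between the times. At 1.5-fold the lists held 2, 6 and 2 glucocorticoid-induced genes in these comparisons, the 6 being 4 higher and 2 lower than the control. At 1 h they then held 1 SGK pathway gene and 1 TSC22 or FKBP gene, at 6 h 1 immediate early gene and 3 repressed genes, and between the times 1 receptor gene, 1 SGK pathway gene and 2 TSC22 or FKBP genes. The cause of the other changes was not tested. Zbtb16 and Sgk3 had the lowest levels of the members, and how far depth limits them was not tested.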
